A study of Mus musculus with 24 samples.

Results

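Expression of 10 genes of endothelial and blood progenitors was followed in mouse embryonic stem cells (ESCs) with deletions of Tet genes, before and after withdrawal of leukemia inhibitory factor (LIF). The genes were Kdr, Etv2, Tal1, Lmo2, Gata1, Gata2, Runx1, Pecam1, Cdh5 and Hhex, listed by symbol and not by a threshold on their values, and they are 10 of the 22926 gene symbols in the count tables. RNA-seq covered 24 libraries, each from 1 clone of a single 129 derived ESC line (129/SVj in the study's methods) with eGFP at the Pou5f1 (Oct4) locus. The groups at each day were 3 clones of WT (the unedited line), 3 of Tet1-/-, 2 of Tet2-/-, 2 of DKO (Tet1-/-:Tet2-/-) and 2 of TKO (Tet1-/-:Tet2-/-:Tet3-/-), all with the eGFP allele, undifferentiated (D0) or grown for 6 days without LIF (D6). Deletions were indels made with CRISPR guides, so the RNA level of a Tet gene does not check a label. The study reports loss of the proteins on Western blots. It lists a single Tet2 allele for both Tet2-/- clones and a single Tet3 allele for both TKO clones, beside which a large indel may have gone undetected. The same clones were used at both days, except for Tet1-/-, where clone 2.3 of D0 was replaced at D6 by clone 2.2, and clones of 1 line measure the spread between clones and not between independent lines.

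Tet proteins oxidise 5-methylcytosine in DNA, most of which lies in CpG dinucleotides. In the embryo, mesoderm that expresses the vascular endothelial growth factor receptor Kdr gives rise to both endothelium and the first blood cells, and ESCs without LIF form such cells among many other types. The ETS factor Etv2 acts early in this step, a complex of Tal1, Lmo2 and GATA factors together with Runx1 acts in blood and hemogenic endothelium, and Pecam1 and Cdh5 hold endothelial cells together at their junctions.

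Libraries held 18400463 to 37290208 counts, and levels are given as CPM, counts scaled to library size, after scaling by TMM. A gene with no count may still have stood at up to 0.0814 to 0.151 CPM (3 counts, by library, for counting error only). All 10 genes passed the filter on low counts in each fit. The 10 markers of undifferentiated ESCs summed to 4985 to 6002 CPM in the D0 libraries. At D6 they summed to 861 to 1801 CPM in WT, 959 to 1712 in Tet1-/-, 1272 and 1322 in DKO, 1786 and 1816 in TKO, and 2305 and 2522 in Tet2-/-. Of the WT clones at D6, O4.2 stood apart with 1801 CPM of these markers against 861 and 1033 CPM, and results that rest on it are given with and without it. In these bulk libraries, fewer cells of a type and less RNA per cell cannot be told apart.

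The promoters of 3 genes are shown because their change over 6 days in Tet2-/- clones differed from that in WT, and because Tet proteins act on methylated CpG. Each is the 250 bases before the RefSeq start, 5′ to 3′ on the gene's strand, with CpG dinucleotides in capitals. The windows are from RefSeq (GRCm38.p6), and each matched build mm9 exactly and at 1 place. Kdr lies at chr5:76374481-76374730, minus strand, Gata1 at chrX:7545037-7545286, minus strand, and Hhex at chr19:37509081-37509330, plus strand.
Kdr: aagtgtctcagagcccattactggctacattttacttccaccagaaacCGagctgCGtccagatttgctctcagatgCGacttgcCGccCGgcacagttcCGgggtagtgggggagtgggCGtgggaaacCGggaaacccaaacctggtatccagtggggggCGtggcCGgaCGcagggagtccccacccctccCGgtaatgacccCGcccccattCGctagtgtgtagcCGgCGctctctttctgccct
Gata1: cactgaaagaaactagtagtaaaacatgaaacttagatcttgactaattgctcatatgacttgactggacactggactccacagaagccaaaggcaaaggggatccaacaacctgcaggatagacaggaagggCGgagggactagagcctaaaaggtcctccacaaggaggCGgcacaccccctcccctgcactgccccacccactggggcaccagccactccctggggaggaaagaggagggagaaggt
Hhex: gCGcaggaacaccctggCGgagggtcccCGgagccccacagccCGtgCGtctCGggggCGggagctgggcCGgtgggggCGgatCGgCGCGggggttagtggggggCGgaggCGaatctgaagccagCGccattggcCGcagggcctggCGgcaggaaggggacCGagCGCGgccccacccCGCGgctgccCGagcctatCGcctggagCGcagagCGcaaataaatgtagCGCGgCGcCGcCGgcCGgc
With the 50 bases after the start included, the Kdr window held 19 CpG dinucleotides, more than 71.9% of the 32851 RefSeq promoter windows of this length, for which the median was 7. Hhex held 37, more than 94.4% of windows, and Gata1 held 4, more than 31.4%. So the 3 genes did not share a CpG content. DNA methylation was not measured in these libraries. The study measured it at D0 by bisulfite sequencing, and reported no correlation between promoter methylation changes and RNA changes.

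Promoter windows were found for 7 of the 10 genes, and Lmo2, Pecam1 and Cdh5 had no entry. Etv2 held 5 CpG dinucleotides. Genes with more than 1 start differed between their starts. The upstream start of Runx1, the distal promoter, held 2 CpG dinucleotides and the downstream start 35, while the windows of Gata2 held 32 and 29 and those of Tal1 held 11 and 22. Both strands of each window were searched for short motifs. The E-box CAGATG, found in 17.2% of all windows, matched 1 time in the Kdr window and 1 time in the upstream Tal1 window. The letters CCGGAA, bound by ETS factors and found in 14.9% of windows, matched 1 time in the Kdr window and 1 time in the downstream Runx1 window. For GATA factors, AGATAA is found in 11.2% of windows and matched 1 time in the upstream Tal1 window. For Runx factors, TGTGGT is found in 16.8% of windows and matched 2 times in the distal Runx1 window. The T-box letters AGGTGT, found in 13.7% of windows, matched in none of them. The windows of Etv2, Gata1, Gata2 and Hhex held none of these letters. A match is a description of the sequence and not a measured binding site.

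**Figure D1:**
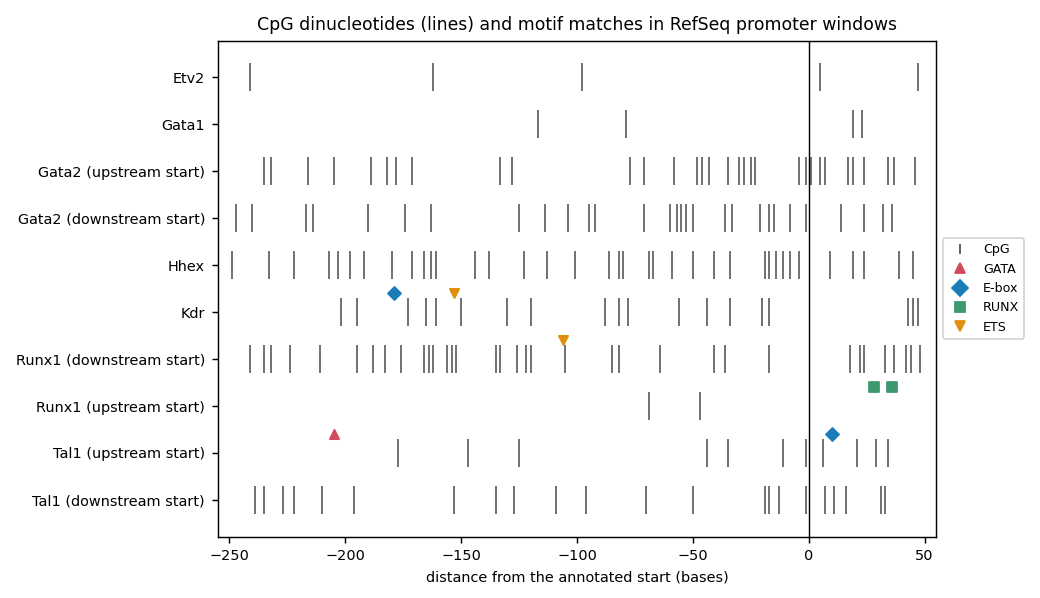
Positions of CpG dinucleotides (vertical lines) and motif matches (symbols above them) in the RefSeq promoter windows of 7 genes, by distance from the annotated start in bases. Hhex holds 37 CpG dinucleotides and the upstream start of Runx1 holds 2.

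Kdr (chr5:76328852-76374483, minus strand, 30 exons in its longest coding transcript), the receptor by which endothelial progenitors respond to VEGF, had the widest range of the 10 genes. In WT it stood at 1.53, 3.54 and 2.16 CPM at D0 in clones O4.1, O4.2 and O4.13 and at 81.3, 20.3 and 119 CPM at D6. In Tet1-/- it was at 4.85, 7.09 and 8.29 CPM at D0 in clones 2.1, 2.3 and 2.4 and at 47.6, 167 and 12.3 CPM at D6 in clones 2.1, 2.2 and 2.4. The Tet1-/- clones therefore spread over a wider range at D6 than the WT clones did, and both genotypes were above their D0 range in every clone. In Tet2-/- replicates 1 and 2 it was at 1.41 and 2.13 CPM at D0 and at 0.662 and 0.976 CPM at D6. DKO held 6.31 CPM at D0 and 13.3 CPM at D6 in one clone and 10.2 and 3.53 CPM in the other, where the D6 label writes the clone name without its point and the match to D0 was inferred, and TKO replicates 1 and 2 held 2.13 and 3.87 CPM at D0 and 2.12 and 4.44 CPM at D6. The clones without Tet2 thus had no D6 range wholly above their D0 range. Kdr rose in WT by 4.93 on the log2 scale (SE 0.82, edgeR adjusted p = 3.77e-05) and in Tet1-/- by 3.49 (SE 0.75, edgeR adjusted p = 0.000516). With clone as a block, the Tet1-/- change was 1.93 and lost its call (edgeR adjusted p = 0.0614). The change was -1.15 in Tet2-/- (SE 1.13, edgeR adjusted p = 0.445), 0.03 in DKO (SE 0.87, adjusted p = 0.983) and 0.09 in TKO (SE 0.98, adjusted p = 0.946), none of which passed.

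At D6, Kdr averaged 0.819 ± 0.222 CPM (SD, n = 2) in Tet2-/- and 73.4 ± 49.6 CPM (SD, n = 3) in WT. It was lower in Tet2-/- by a log2 fold change of -6.51 (SE 1.35, edgeR adjusted p = 0.00898). Without Tet2-/- replicate 1 the value was -6.24 (edgeR adjusted p = 0.0794) and without replicate 2 it was -6.79 (edgeR adjusted p = 0.0868), so with 1 Tet2-/- clone the size stayed and the call was lost. Both Tet2-/- clones were below each clone of the other 4 genotypes. In TKO the log2 fold change from WT was -4.50 (SE 1.18, edgeR adjusted p = 0.0794) and in DKO -3.12 (SE 1.07, edgeR adjusted p = 0.254), with no overlap between the knockout and WT clones in either. The TKO difference passed with DESeq2 (-4.47, adjusted p = 0.00234), with all 24 libraries in 1 edgeR fit (-4.52, adjusted p = 0.0122) and without WT clone O4.2 at D6 (-4.95, edgeR adjusted p = 0.0269). At D0 the Tet1-/- clones were all above the WT clones (log2 fold change 1.46, SE 0.34, edgeR adjusted p = 0.125), and so were the DKO clones (1.76, SE 0.37, edgeR adjusted p = 0.0844). Neither was called, while DESeq2 called both (adjusted p = 0.0053 and 0.0013).

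**Figure D2:**
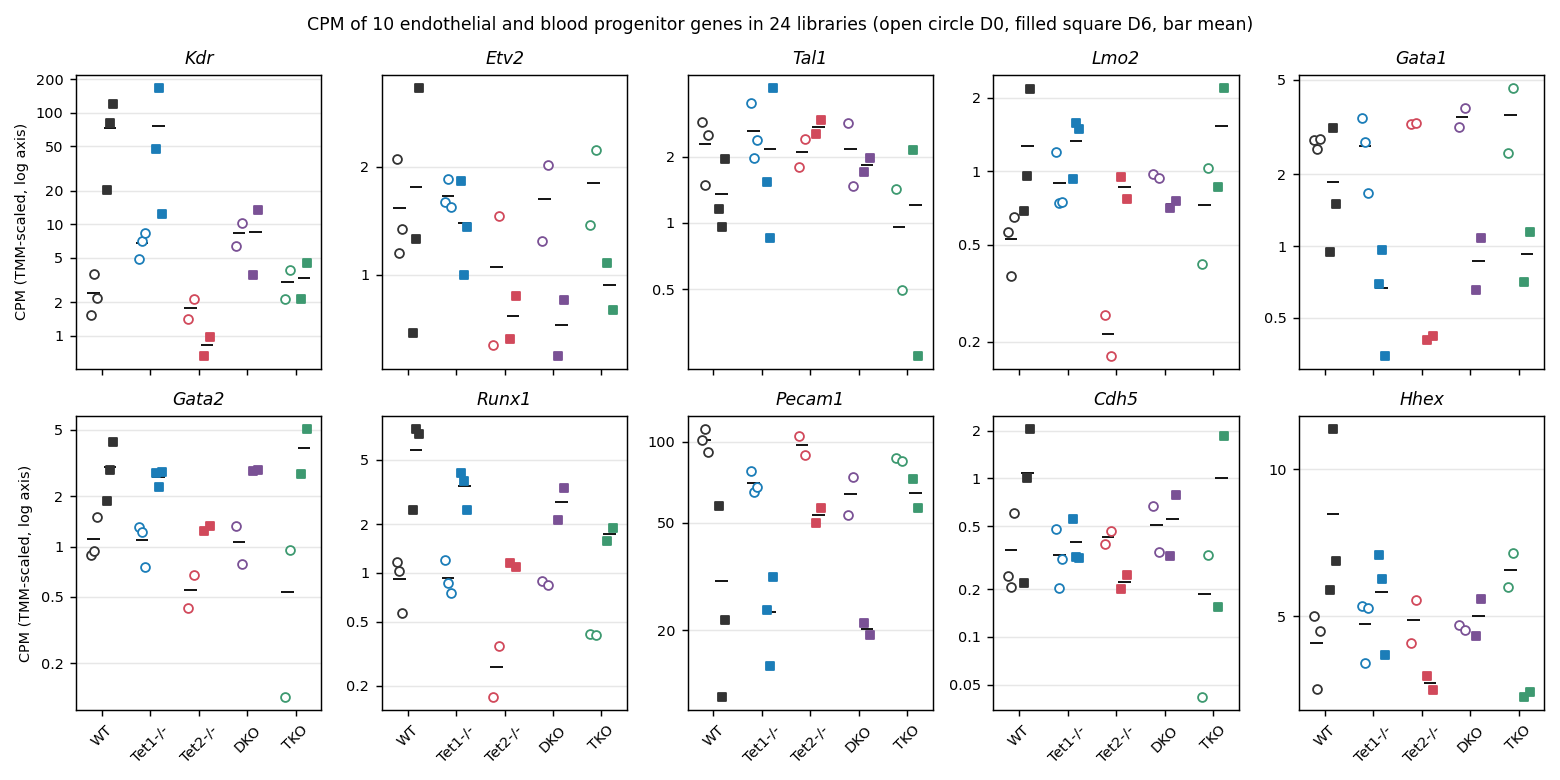
CPM of each gene on log axes, 1 panel per gene, with genotypes along the x axis. Each point is 1 library (open circle D0, filled square D6) and each bar is the mean of a group. Kdr at D6 reaches 167 CPM in a Tet1-/- clone and stays under 1 CPM in both Tet2-/- clones.

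Etv2 (chr7:31418635-31421308, minus strand), the ETS factor that sets off the endothelial and blood program, was low throughout. WT held 2.1, 1.15 and 1.34 CPM at D0 in O4.1, O4.2 and O4.13 and 1.26, 0.690 and 3.31 CPM at D6. At D6 the other genotypes lay between 0.597 CPM (DKO replicate 1) and 1.83 CPM (Tet1-/- clone 2.1). All knockout clones at D6 were under the highest WT clone, and no comparison of all libraries called Etv2. Its log2 fold change at D6 against WT was -1.22 in Tet2-/- (SE 0.58, edgeR adjusted p = 0.131). Without WT clone O4.2 it was -1.61 and was called (edgeR adjusted p = 0.0312).

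Tal1 (chr4:114729031-114744360, plus strand), the bHLH factor at the centre of the blood stem cell complex, was called in no comparison when all libraries were used. WT clones O4.1, O4.2 and O4.13 held 2.87, 1.48 and 2.5 CPM at D0 and 0.958, 1.16 and 1.94 CPM at D6. Tet2-/- clones held 1.79 and 2.4 CPM at D0 and 2.53 and 2.93 CPM at D6, which was above the D6 WT clones (log2 fold change 0.98, SE 0.71, edgeR adjusted p = 0.315). TKO replicate 2 was low at both days, with 0.495 CPM at D0 and 0.250 CPM at D6, against 1.42 and 2.15 CPM in replicate 1. Without replicate 1 at D6, Tal1 was called lower in TKO than in Tet2-/- (-3.41, edgeR adjusted p = 0.0411). Without replicate 1 at D0, Tal1 was called lower in TKO than in WT (-2.20, edgeR adjusted p = 0.0106), and with both clones it was not (-1.25, SE 0.47, adjusted p = 0.113). The tables hold 2 lines for Tal1, and the first was used.

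Lmo2 (chr2:103798143-103822035, plus strand), the adaptor that joins Tal1 to GATA factors, rose in WT and in Tet2-/-. WT held 0.566, 0.370 and 0.648 CPM at D0 and 0.958, 0.690 and 2.16 CPM at D6 in O4.1, O4.2 and O4.13. Tet2-/- held 0.256 and 0.175 CPM at D0 and 0.950 and 0.767 CPM at D6. In both genotypes each D6 clone was above each D0 clone, but counts were few (6 in each Tet2-/- library at D0). This came to a log2 fold change of 1.28 in WT (SE 0.46, edgeR adjusted p = 0.019) and 2.01 in Tet2-/- (SE 0.63, edgeR adjusted p = 0.0162). Without WT clone O4.13 at D6 the WT value was 0.65 (edgeR adjusted p = 0.228). It also lost its call without O4.2 at D0 (1.08, adjusted p = 0.0771). The Tet2-/- value lost its call without replicate 2 at D0 (1.73, adjusted p = 0.137) or replicate 1 at D6 (1.84, adjusted p = 0.0869). In TKO the change was 1.04 (edgeR adjusted p = 0.117). It was called with clone as a block (1.07, adjusted p = 0.0443), without replicate 2 at D0 (1.82, adjusted p = 0.0463) and without replicate 1 at D6 (1.59, adjusted p = 0.0314).

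Gata1 (chrX:7536386-7555197, minus strand), the GATA factor of red cells and megakaryocytes, was present in undifferentiated cells and fell in every knockout. At D0 all libraries lay between 1.67 and 4.62 CPM. At D6 WT held 3.13, 0.944 and 1.5 CPM in O4.1, O4.2 and O4.13, while the 9 knockout libraries held 0.347 to 1.15 CPM. Each knockout group at D6 was wholly under its own D0 range, whereas WT clone O4.1 at D6 was above the WT clones at D0. The log2 fold change over 6 days was -2.98 in Tet2-/- (SE 0.54, edgeR adjusted p = 0.000275), -1.98 in Tet1-/- (adjusted p = 0.000471), -2.00 in DKO (adjusted p = 0.00235) and -1.96 in TKO (adjusted p = 0.00358). In TKO it was -1.44 without replicate 2 at D0 (edgeR adjusted p = 0.052). In WT it was -0.58 (SE 0.39, edgeR adjusted p = 0.202), and without O4.1 at D6 it was -1.13 and was called (adjusted p = 0.0185). At D6 both Tet2-/- clones, with 0.403 and 0.418 CPM, were below the WT clones (log2 fold change -2.16, SE 0.60, edgeR adjusted p = 0.0231). Without O4.1 this difference was -1.56 (adjusted p = 0.067), so the call rested on that WT clone as well as on both Tet2-/- clones (-2.14, adjusted p = 0.133 without replicate 1, and -2.19, adjusted p = 0.139 without replicate 2).

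Gata2 (chr6:88143885-88157024, plus strand), the GATA factor of blood stem cells and endothelium, rose in 4 of 5 genotypes. WT held 0.889, 0.946 and 1.51 CPM at D0 and 2.87, 1.89 and 4.23 CPM at D6 in O4.1, O4.2 and O4.13. TKO held 0.125 and 0.948 CPM at D0 and 2.74 and 5.04 CPM at D6, and Tet2-/- held 0.427 and 0.672 CPM at D0 and 1.24 and 1.33 CPM at D6. Every D6 group was above its own D0 group, and the Tet2-/- clones were the lowest 2 of the 12 D6 libraries. The log2 fold change over 6 days was 1.43 in WT (SE 0.42, edgeR adjusted p = 0.00609), 1.25 in Tet1-/- (adjusted p = 0.015), 1.42 in DKO (adjusted p = 0.0272) and 2.83 in TKO (SE 0.56, adjusted p = 0.000415). In Tet2-/- it was 1.19 (SE 0.56, edgeR adjusted p = 0.0973), and it was called with clone as a block (1.22, adjusted p = 0.0436). The DKO call was lost without replicate 2 at D0 (1.12, adjusted p = 0.176), replicate 1 at D6 (1.42, adjusted p = 0.0769) or replicate 2 at D6 (1.42, adjusted p = 0.0701), and the Tet1-/- call without clone 2.4 at D0 (1.04, adjusted p = 0.0696).

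Between genotypes at D6, Gata2 was lower in Tet2-/- than in WT (log2 fold change -1.24, SE 0.37, edgeR adjusted p = 0.0296) and higher in TKO than in Tet2-/- (1.62, SE 0.39, edgeR adjusted p = 0.0251). The first call was lost without any of 4 libraries, with values of -1.19 without Tet2-/- replicate 1 (adjusted p = 0.155), -1.29 without replicate 2 (adjusted p = 0.146), -1.25 without WT clone O4.1 (adjusted p = 0.0611) and -0.89 without O4.13 (adjusted p = 0.106). The second was 1.57 without replicate 1 (adjusted p = 0.137), 1.66 without replicate 2 (adjusted p = 0.157) and 1.13 without TKO replicate 2 (adjusted p = 0.165). At D0, Gata2 in TKO overlapped WT (-1.04, SE 0.58, edgeR adjusted p = 0.274), and it was called lower without TKO replicate 2 (-3.1, adjusted p = 0.0101), which left a library with 3 counts.

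Runx1 (chr16:92601712-92826311, minus strand), the factor needed for blood cells to arise from endothelium, rose in all 5 genotypes. WT held 1.17, 1.03 and 0.561 CPM at D0 and 7.72, 2.43 and 7.23 CPM at D6 in O4.1, O4.2 and O4.13. Tet2-/- held 0.171 and 0.351 CPM at D0, from 4 and 12 counts, and 1.15 and 1.08 CPM at D6. So the Tet2-/- clones at D6 stood near the level of WT clones at D0. Tet1-/- held 2.43 to 4.12 CPM at D6, DKO 2.12 and 3.35 CPM, and TKO 1.57 and 1.90 CPM. The log2 fold change over 6 days was 2.64 in WT (SE 0.39, edgeR adjusted p = 9.67e-06), 1.86 in Tet1-/- (adjusted p = 0.00037), 2.02 in Tet2-/- (SE 0.56, adjusted p = 0.00747), 1.65 in DKO (adjusted p = 0.00711) and 2.04 in TKO (adjusted p = 0.0038). The Tet2-/- value was 1.68 without replicate 1 at D0 (adjusted p = 0.0699) and the DKO value 1.29 without replicate 2 at D6 (adjusted p = 0.066). The change in Tet2-/- did not pass a test of difference from the change in WT (log2 difference -0.62, SE 0.71, edgeR adjusted p = 0.578).

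Runx1 was lower in Tet2-/- than in WT at both days. Its log2 fold change was -1.77 at D0 (SE 0.43, edgeR adjusted p = 0.0288) and -2.38 at D6 (SE 0.49, edgeR adjusted p = 0.00854). The D0 call was lost with all 24 libraries in 1 fit (-1.75, adjusted p = 0.0599), with a minimum count of 50, which removes Runx1, and without WT clone O4.1 (-1.56, adjusted p = 0.0539), O4.2 (-1.68, adjusted p = 0.0914), Tet2-/- replicate 1 (-1.41, adjusted p = 0.202) or replicate 2 (-2.41, adjusted p = 0.135). The D6 value was -2.43 without replicate 1 (adjusted p = 0.0699) and -2.33 without replicate 2 (adjusted p = 0.0869). In TKO at D6 it was -1.73 (SE 0.47, edgeR adjusted p = 0.0848), which DESeq2 called (-1.73, adjusted p = 0.00846), as did edgeR with all 24 libraries in 1 fit (-1.74, adjusted p = 0.0201) and without WT clone O4.2 (-2.1, adjusted p = 0.0138). Exons of Runx1 overlap the lincRNA Gm16801 on the opposite strand, and since use of strand in the counting is not stated in the sources used here, their reads cannot be told apart.

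Pecam1 (chr11:106515531-106611942, minus strand), the junction protein CD31, was the most abundant of the 10 genes in undifferentiated cells, which are known to carry it on their surface. Per length, WT at D0 held 29.4 ± 2.81 RPKM (reads scaled to depth and transcript length, SD, n = 3) of Pecam1, while the other 9 genes were at 1.43 ± 0.0748 RPKM (Gata1) or less. Its level in WT was 101, 111 and 91.6 CPM at D0 and 11.3, 57.9 and 21.9 CPM at D6 in O4.1, O4.2 and O4.13. WT clone O4.2, the clone with more of the ESC markers, kept the most Pecam1, and the D6 clones were all below the D0 clones. It fell by 1.73 on the log2 scale in WT (SE 0.37, edgeR adjusted p = 0.000418), by 1.58 in Tet1-/- (adjusted p = 0.00102) and by 1.65 in DKO (adjusted p = 0.00472). In Tet2-/-, with 105 and 89.4 CPM at D0 and 50.02 and 56.5 CPM at D6, the change was -0.86 (SE 0.44, edgeR adjusted p = 0.124). In TKO, with 86.7 and 84.7 CPM at D0 and 72.6 and 56.6 CPM at D6, it was -0.41 (SE 0.44, edgeR adjusted p = 0.453). Neither passed the test.

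At D6 Pecam1 in Tet2-/- and TKO lay above WT clones O4.1 and O4.13 and near or above O4.2. Its log2 fold change against WT was 0.78 in Tet2-/- (SE 0.51, edgeR adjusted p = 0.263) and 1.09 in TKO (SE 0.51, edgeR adjusted p = 0.222). Without O4.2 both were called, at 1.66 (edgeR adjusted p = 0.00854) and 1.97 (edgeR adjusted p = 0.0171). The Tet2-/- and TKO clones and O4.2 held 1786 CPM or more of the ESC markers at D6, and the other 7 libraries held 1712 CPM or less. The part of undifferentiated cells in the Pecam1 level was not tested.

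Cdh5 (chr8:106625525-106668402, plus strand), VE-cadherin, which marks committed endothelium, stayed low. WT held 0.242, 0.206 and 0.605 CPM at D0 and 1.01, 0.218 and 2.04 CPM at D6 in O4.1, O4.2 and O4.13, from 5 to 64 counts. TKO replicate 2 held 0.330 CPM at D0 and 1.85 CPM at D6, from 8 and 37 counts. TKO replicate 1 held 0.0418 and 0.154 CPM, from 1 and 5 counts. Tet2-/- clones held 0.384 and 0.467 CPM at D0 and 0.202 and 0.244 CPM at D6. No comparison of all libraries called Cdh5 with TMM scaling and no block. With clone as a block it was called higher at D6 in WT (1.5, edgeR adjusted p = 0.00475) and TKO (2.35, edgeR adjusted p = 0.00444), against 1.65 (adjusted p = 0.0685) and 2.31 (adjusted p = 0.0772) without it. With no block the WT change was called without O4.2 at D6 (2.14, edgeR adjusted p = 0.0147), without O4.13 at D0 (2.27, adjusted p = 0.0465) and with library totals in place of TMM (1.8, adjusted p = 0.0475). The TKO change was called without replicate 1 at D6 (3.27, edgeR adjusted p = 0.00981). At D6 Cdh5 was called lower in Tet2-/- than in WT without O4.2 (-2.79, edgeR adjusted p = 0.045).

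Hhex (chr19:37507377-37515218, plus strand), a homeobox factor of early endothelium, blood precursors and anterior endoderm, differed in direction between WT and TKO. WT held 5.01, 3.54 and 4.66 CPM at D0 and 12.1, 5.66 and 6.49 CPM at D6 in O4.1, O4.2 and O4.13. Tet2-/- held 4.39 and 5.40 CPM at D0 and 3.77 and 3.52 CPM at D6, and TKO held 5.72 and 6.72 CPM at D0 and 3.41 and 3.49 CPM at D6. WT clones were all higher at D6 than at D0, and the Tet2-/- and TKO clones were all lower. Over 6 days it changed by 0.87 on the log2 scale in WT (SE 0.25, edgeR adjusted p = 0.00484) and -0.85 in TKO (SE 0.31, edgeR adjusted p = 0.0277), both under the 2-fold limit of a call, and -0.43 in Tet2-/- (SE 0.30, adjusted p = 0.276). The WT change passed that limit and was called without O4.2 at D6 (1.07, edgeR adjusted p = 0.00107), without O4.13 at D6 (1.03, adjusted p = 0.00337) and with library totals in place of TMM (1.02, adjusted p = 0.00166). At D6 Hhex was lower in Tet2-/- than in WT (-1.16, SE 0.33, edgeR adjusted p = 0.0269), and the TKO value was -1.21 (SE 0.34, edgeR adjusted p = 0.086). The TKO difference was called without O4.2 (-1.40, edgeR adjusted p = 0.029), with all 24 libraries in 1 fit (-1.22, adjusted p = 0.0184) and with DESeq2 (-1.20, adjusted p = 0.0128). The Tet2-/- call was lost without WT clone O4.1, which was highest (-0.73, adjusted p = 0.0757), and without Tet2-/- replicate 1 (-1.21, adjusted p = 0.125) or replicate 2 (-1.11, adjusted p = 0.16).

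Over 6 days without LIF, 3 to 5 of the 10 genes were called in each genotype. A call is a Benjamini-Hochberg adjusted p under 0.05 and a change over 2-fold. In WT 4 genes rose (Kdr, Lmo2, Gata2 and Runx1) and 1 fell (Pecam1), beside 20.7% and 13.3% (34.0% in all) of the 15639 genes tested. Their median log2 fold change was 1.07, and that of all genes was 0.01. In Tet1-/- 3 rose (Kdr, Gata2 and Runx1) and 2 fell (Gata1 and Pecam1), beside 19.9% and 11.2% (31.1% in all) of all genes, with a median of 0.24. In DKO 2 rose (Gata2 and Runx1) and 2 fell (Gata1 and Pecam1), beside 18.6% and 10.6% (29.2% in all), with a median of -0.11. In TKO 2 rose (Gata2 and Runx1) and 1 fell (Gata1), beside 16.8% and 8.63% (25.4% in all), with a median of 0.25. With clone as a block, 5 genes were called in TKO in place of 3, 6 in WT in place of 5, 4 in Tet2-/- in place of 3, and 4 in Tet1-/- in place of 5 (Kdr lost). In Tet2-/- 2 rose (Lmo2 and Runx1) and 1 fell (Gata1), beside 12.7% and 6.44% (19.1% in all), with a median of -0.46. Runx1 was the only gene of the 10 called in all 5 genotypes.

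**Figure D3:**
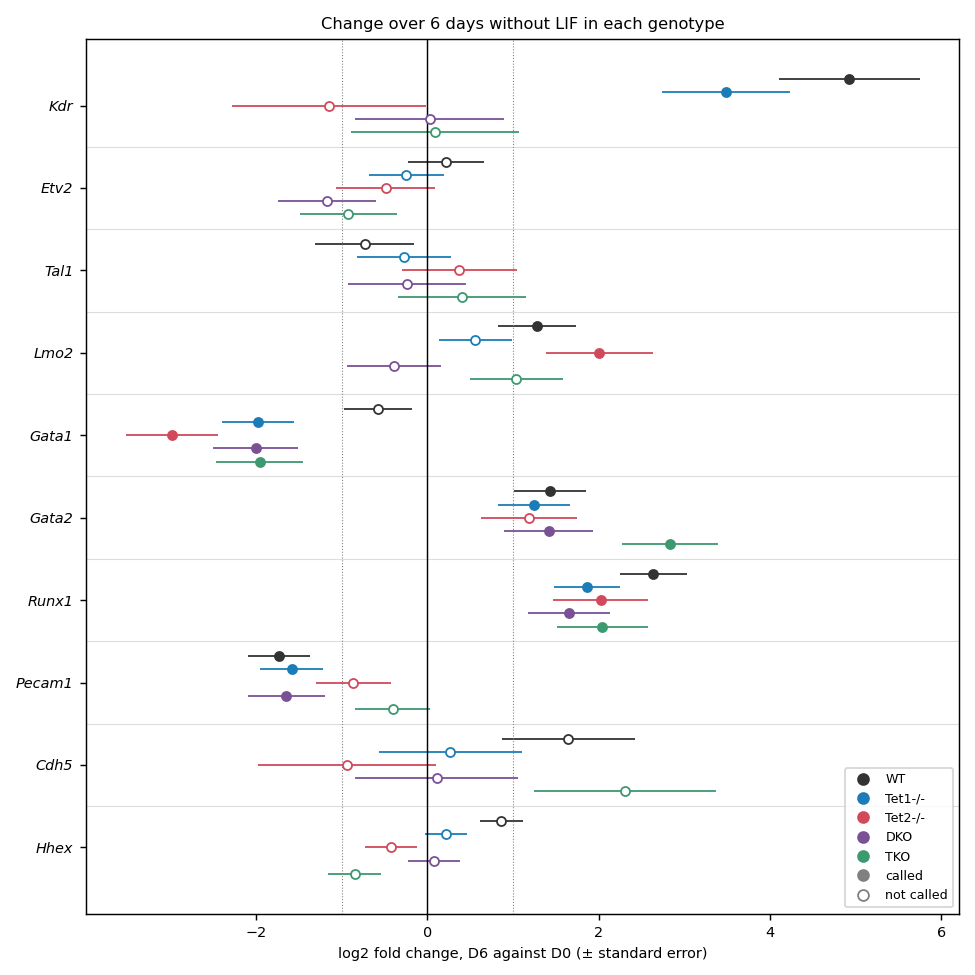
Log2 fold change of each gene from D0 to D6 in each genotype (points, with the standard error as bars), filled where called and open where not. Dotted lines mark 2-fold. Kdr lies at 4.93 in WT and 3.49 in Tet1-/- and at -1.15, 0.03 and 0.09 in Tet2-/-, DKO and TKO.

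In undifferentiated cells few of the genes differed from WT. In Tet2-/- 1 of 10 was lower (Runx1) and none was higher, beside 2.37% of 14456 genes lower and 3.19% called in all. In Tet1-/- edgeR called 0 of 10 (0.00692% of all genes), in DKO 0 (0.0346%, with 0.0138% higher and 0.0208% lower) and in TKO 0 (3.15%). At an unadjusted p under 0.05 there were 2, 2 and 3 of the 10 genes, among 1828, 2081 and 3813 of all genes, and DESeq2 called 1 (Kdr), 1 (Kdr) and 0, among 52, 110 and 489 of all genes.

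At D6, with all 12 libraries of the day in the edgeR fit, differences from WT were called in Tet2-/- and in no other knockout. In Tet2-/- 5 of 10 genes were lower (Kdr, Gata1, Gata2, Runx1 and Hhex) and 0 higher, beside 9.45% of the 15435 genes tested lower and 4.81% higher. The median log2 fold change of the 10 genes was -1.23, and that of all genes was -0.03. All 5 calls were lost without either Tet2-/- clone, and a minimum count of 50, which too few libraries reach for Gata1, left 4. Without WT clone O4.2 there were 8 calls, which added Etv2 and Cdh5 lower and Pecam1 higher, without O4.1 there were 2 (Kdr and Runx1), and without O4.13 there were 4. In Tet1-/-, DKO and TKO edgeR called 0 of the 10 genes and 0% of all genes. At an unadjusted p under 0.05 there were 1, 3 and 3 of the 10 genes, among 1949, 2251 and 3629 of all genes. DESeq2 called 0, 0 and 3 of the 10 genes, among 44, 189 and 481 of all genes. In TKO edgeR called 4 genes without WT clone O4.2 (Kdr, Runx1 and Hhex lower and Pecam1 higher), and 3 with all 24 libraries in 1 fit (Kdr, Runx1 and Hhex lower). The share of all genes called in these alternative fits is not given here. The medians of the 10 genes were -0.36 in Tet1-/-, -0.90 in DKO and -0.54 in TKO. The comparisons share the WT clones, so their values are not independent of each other.

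**Figure D4:**
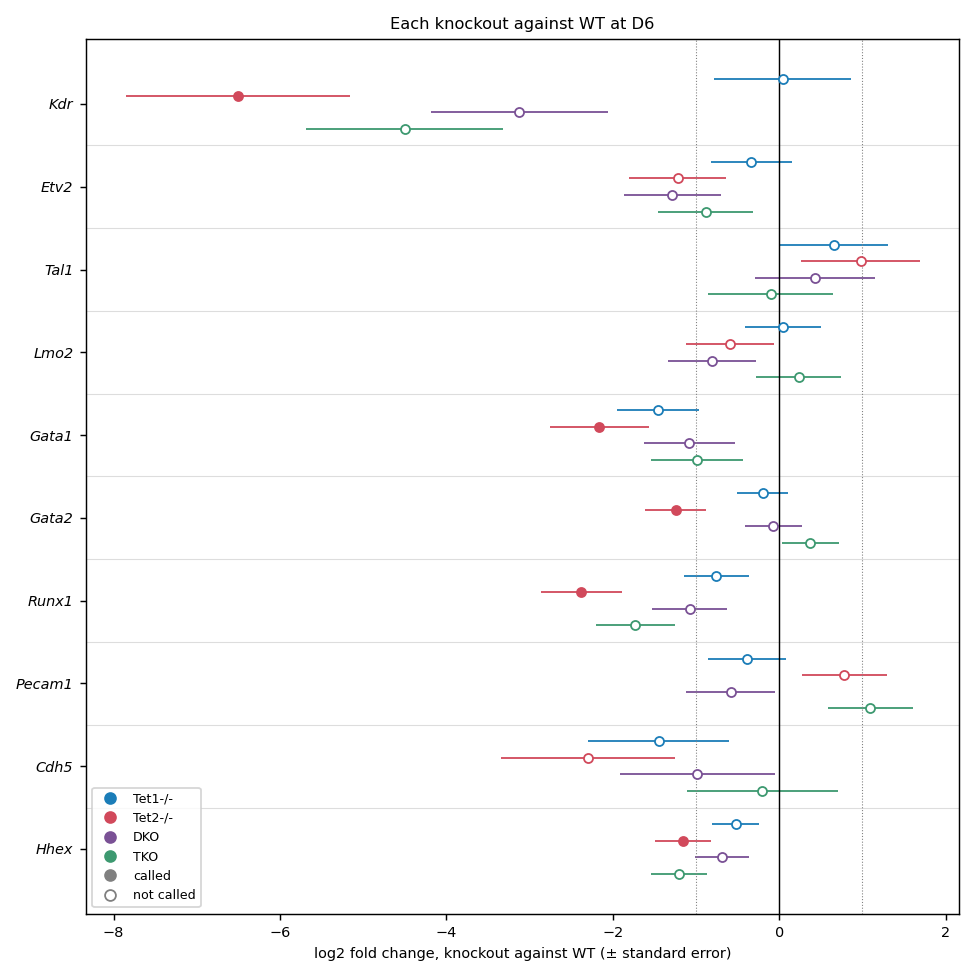
Log2 fold change of each gene in each knockout against WT at D6 (points, with the standard error as bars), filled where called and open where not. Dotted lines mark 2-fold. The 5 called values are all of Tet2-/-, from -6.51 (Kdr) to -1.16 (Hhex).

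The order of the genotypes at D6 was largely within the spread of clones. For Kdr the order of means was Tet1-/-, WT, DKO, TKO and Tet2-/-, and no neighbours in it passed the test (edgeR adjusted p = 0.984, 0.254, 0.722 and 0.314), although DKO lay wholly under WT and Tet2-/- wholly under TKO. With edgeR, no neighbours in the order passed for any of the other 9 genes either, while DESeq2 called Gata2 lower in Tet2-/- than in its neighbour Tet1-/- (-1.03, adjusted p = 0.0487). Between knockouts that are not neighbours, Kdr was lower in Tet2-/- than in Tet1-/- (-6.55, SE 1.35, edgeR adjusted p = 0.0182), the 1 call of 10 genes in that comparison beside 4.48% of all genes lower and 1.87% higher (6.36% in all). It was lost without replicate 1 (-6.28, adjusted p = 0.149) or replicate 2 (-6.84, adjusted p = 0.19). Runx1 was also called lower there with DESeq2 (-1.62, adjusted p = 0.0085) and in several edgeR alternatives. These were all 24 libraries in 1 fit (-1.61, edgeR adjusted p = 0.0142), the compared groups alone (-1.62, 0.0417), no filter (-1.61, 0.044), library totals (-1.70, 0.0486), and without Tet1-/- clone 2.4 (-1.82, 0.0292). With all 24 libraries Pecam1 was called higher (1.18, edgeR adjusted p = 0.0433). TKO against Tet2-/- gave 1 call higher (Gata2), beside 6.01% of all genes. DKO against Tet2-/- gave 0 calls with edgeR fitted to the 12 D6 libraries (9.50% of all genes, with 6.37% higher), 4 at an unadjusted p under 0.05 (5039 of all genes) and 2 with DESeq2 (Kdr and Gata2 higher, among 1777 of all genes). In edgeR fits of other sets of libraries it gave 3 calls with all 24 (Kdr and Runx1 higher, Pecam1 lower) and 5 with the compared groups alone (Kdr, Gata1, Gata2 and Runx1 higher, Pecam1 lower). The share of all genes called in those fits is not given here, so these counts are not set against it. DKO against Tet1-/-, TKO against Tet1-/- and TKO against DKO gave 0 calls with edgeR among 0% of all genes, 1, 2 and 1 at an unadjusted p under 0.05 (824, 2598 and 1277 of all genes), and 0, 1 and 0 with DESeq2 (3, 184 and 4 of all genes).

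Whether the change over 6 days itself differed from that in WT was tested as an interaction. In Tet2-/- 3 of 10 genes had a lower change than in WT, beside 5.13% of all genes. The log2 difference was -6.07 for Kdr (SE 1.38, edgeR adjusted p = 0.00931), -2.41 for Gata1 (SE 0.66, adjusted p = 0.0217) and -1.29 for Hhex (SE 0.39, adjusted p = 0.0325). In TKO 2 genes did, beside 1.74% of all genes, with -4.84 for Kdr (SE 1.26, edgeR adjusted p = 0.0312) and -1.71 for Hhex (SE 0.39, adjusted p = 0.0179). In Tet1-/- and DKO edgeR called 0 of the 10 genes and 0% of all genes, with 1 and 3 of the 10 at an unadjusted p under 0.05 (1200 and 1255 of all genes) and 0 and 1 with DESeq2 (12 and 20 of all genes). The DKO value for Kdr was -4.90 (SE 1.19, edgeR adjusted p = 0.372), close in size to that of TKO. With clone as a block, Cdh5 was also called in Tet2-/- (-2.42, edgeR adjusted p = 0.023). Leaving out 1 library at a time gave 0 to 4 calls in Tet2-/- and 0 to 3 in TKO.

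Genes around these 10 in the same pathways were counted in fixed lists, whose counts stand beside the 20.7% of all genes higher and 13.3% lower in WT over 6 days, and the 4.81% higher and 9.45% lower in Tet2-/- against WT at D6. Of 16 tested genes of VEGF, angiopoietin and apelin signalling, 8 rose and 2 fell in WT over 6 days, with a median log2 fold change of 1.06. Aplnr, the apelin receptor, was at 0 in all WT D0 clones and at 61.5 ± 30.1 CPM (SD, n = 3) at D6, at least 1479-fold higher than the level of 3 counts over the D0 group. Flt1, a second VEGF receptor, rose by 6.44 on the log2 scale (SE 0.46, edgeR adjusted p = 1.67e-09). In Tet2-/- against WT at D6, 8 of 16 were lower and none higher, with a median of -0.85. They were led by Nrp1, a co-receptor for VEGF (-6.88, SE 1.38, edgeR adjusted p = 0.00789), and Aplnr (-6.79, SE 1.51, adjusted p = 0.0111).

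Of 16 endothelial transcription factors, 9 rose and 2 fell in WT (median 2.23), led by Foxf1, which was at 0.0281 ± 0.0244 CPM at D0 and 13.6 ± 10.4 CPM at D6 (SD, n = 3; edgeR adjusted p = 1.24e-05), and Sox17 (log2 fold change 7.46, SE 0.92, adjusted p = 1.29e-06). Foxf1 also marks lateral mesoderm and Sox17 endoderm. In Tet2-/- at D6, 6 of 16 were lower than in WT and none higher (median -1.22), with Sox17 at -7.06 (SE 1.22, edgeR adjusted p = 0.00556) and Foxf1 at -6.16 (SE 1.44, adjusted p = 0.0133). Of the effector genes of mature endothelium, 3 of 14 rose in WT and 6 fell (median -0.97), among them Cd93, at 0.0137 ± 0.0238 CPM at D0 and 2.16 ± 1.72 CPM at D6 (edgeR adjusted p = 0.000648), and Icam2, at 0.346 ± 0.0580 and 0.0106 ± 0.0184 CPM (SD, n = 3; adjusted p = 0.00243). In Tet2-/- against WT, 4 of 13 were lower and 2 higher (median 0.47), with Cd93 at 0.0144 ± 0.0204 CPM (SD, n = 2; edgeR adjusted p = 0.0169) and Robo4 at a log2 fold change of 2.51 (SE 0.67, adjusted p = 0.0204). Summed over the 18 effector genes, WT clones held 86.1 to 96.8 CPM at D0 and 43.8 to 54.5 CPM at D6, and Emcn was at 0 in both.

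Of 13 blood transcription factors tested in WT, 3 rose and 2 fell (median 0.06), with Zfpm1, the partner of GATA factors, at 1.73 (SE 0.39, edgeR adjusted p = 0.000664) and Myb at 1.58 (SE 0.48, adjusted p = 0.00772). In Tet2-/- at D6, 2 of 14 were lower than in WT and none higher (median 0.21), Zfpm1 at -2.59 (SE 0.56, edgeR adjusted p = 0.0103) and Nfe2 at -1.41 (SE 0.45, adjusted p = 0.0383). Of 8 tested blood effector genes, 1 rose and 3 fell in WT (median -0.92), with Laptm5 at -4.20 (SE 0.39, edgeR adjusted p = 3.86e-08). In Tet2-/- at D6, 3 of 8 were higher and 1 lower than in WT (median 0.77), with Itga2b, an early blood marker, at a log2 fold change of -1.77 (SE 0.47, edgeR adjusted p = 0.0203). Summed over the 18 listed genes, WT clones held 226 to 267 CPM at D0 and 67.2 to 117 CPM at D6. The Tet2-/- clones held 264 and 294 CPM at D0 and 101 and 106 CPM at D6. The embryonic globin Hbb-y was at 0 in all WT D6 clones, and Hbb-bh1, Hbb-y and Hba-x were at 0 in all D6 clones of Tet2-/- and of Tet1-/-. At D6 Hbb-bh1 was also at 0 in the DKO clones, and Hbb-bh1 and Hbb-y in the TKO clones, so these zeros were not particular to Tet2-/-.

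Of a list of early mesoderm genes, 10 of 12 rose in WT and none fell (median 5.30), led by T (8.81, SE 0.65, edgeR adjusted p = 2.82e-09) and Hand1 (7.41, SE 0.90, adjusted p = 1.1e-06). In Tet2-/- at D6, 8 of 12 were lower than in WT and none higher (median -3.88), led by Hand1 (-7.33, SE 1.27, edgeR adjusted p = 0.00556) and Pdgfra (-6.68, SE 1.22, adjusted p = 0.00613). The summed level of the 12 genes at D6 was 322 CPM in WT clone O4.2 against 830 and 1010 CPM in O4.1 and O4.13, 308 CPM in Tet1-/- clone 2.4 against 655 and 1111 CPM in 2.1 and 2.2, and 126 and 93.7 CPM in Tet2-/-. Clones O4.2 and 2.4 were also the low clones for Kdr in their genotypes. In DKO 9 of 12 mesoderm genes rose over 6 days and 1 fell (median 3.24), beside 18.6% of all genes higher and 10.6% lower. In TKO 7 rose and 1 fell (median 2.43), beside 16.8% of all genes higher and 8.63% lower. Kdr changed by 0.03 in DKO and 0.09 in TKO on the log2 scale. The 12 genes summed to 281 and 433 CPM in DKO and 182 and 495 CPM in TKO at D6. In TKO replicate 1 the sum was 177 CPM at D0 and 182 CPM at D6, and in replicate 2 it was 122 and 495 CPM. Kdr at D6 was at 2.12 CPM in TKO replicate 1 and 4.44 CPM in replicate 2. Across the 12 D6 libraries, Mesp1 (Pearson's r of log2 CPM 0.990), Plxna4 (0.988) and Snai1 (0.981) had the patterns most like Kdr among 15435 genes, as a description over libraries that share genotypes. Mesp1 and Snai1 are themselves among the 12 mesoderm genes. For Runx1 they were Sema7a (0.986), Igf2os (0.970) and Amot (0.968), and Kdr and Runx1 themselves had r = 0.909. For Hhex they were Slfn2 (0.968), Slc16a1 (0.965) and Clic6 (0.960), and for Pecam1 they were Gm3336 (0.984), Akap1 (0.975) and Itgal (0.970). How far the amount of mesoderm sets the levels of the 10 genes was not tested.

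**Figure D5:**
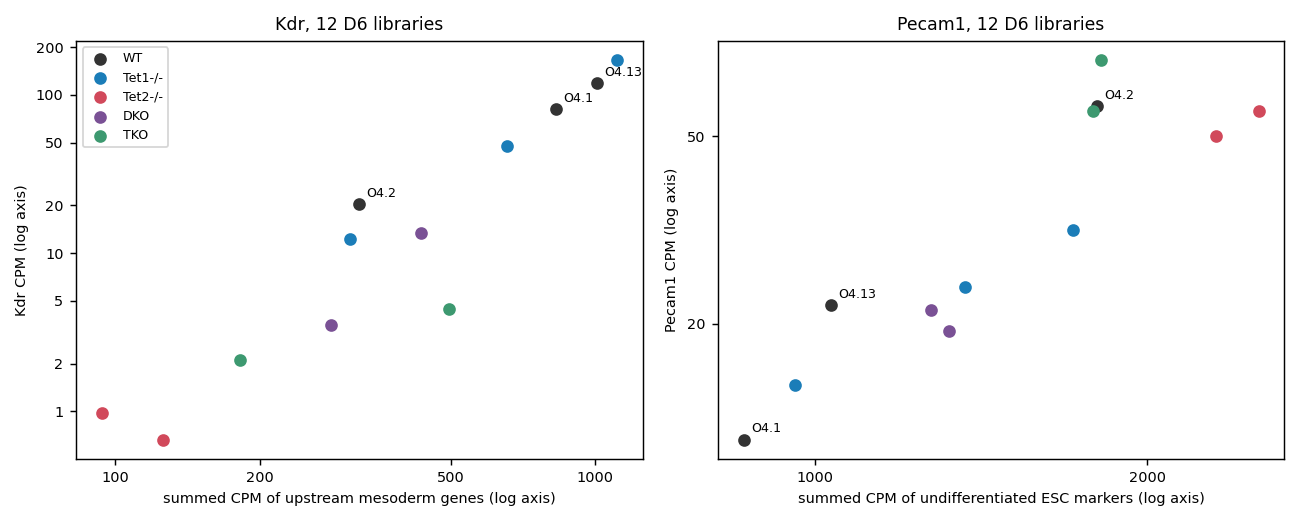
Left, Kdr CPM against the summed CPM of 12 mesoderm genes, and right, Pecam1 CPM against the summed CPM of 10 markers of undifferentiated ESCs, in the 12 D6 libraries on log axes, with WT clones named. The Tet2-/- clones lie lowest in Kdr, at 0.662 and 0.976 CPM, and in mesoderm genes, at 126 and 93.7 CPM, and WT clone O4.2 lies apart from the other WT clones.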

How the data were processed

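Clones were taken as replicates by the labels of the libraries. Per the labels and methods, the authors selected poly(A) RNA, read both ends of each fragment, mapped reads to mm9 with STAR 2.5.1 (version from the submitters' processing notes) and deposited whole-number counts per RefSeq transcript, named by symbol and not normalized. HTSeq and featureCounts are both named as the counter, and use of strand is not given in the sources used here. Of the symbols, 4911 have several lines (among them Tal1, Lmo2, Runx1 and Pecam1), of which only the first entered. Without spike-in lines in the tables used here, the authors' spike-in normalization was not applied.

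The software was edgeR 4.0.16 and DESeq2 1.42.0 under R 4.3.3, with limma 3.58.1 as a dependency. After TMM scaling, genes were kept by filterByExpr with a minimum count of 10, and edgeR's quasi-likelihood test was fitted with 1 coefficient per group separately per day, to 12 libraries each (14456 genes at D0 and 15435 at D6), and to all 24 libraries (15639 genes) for D6 against D0 and the interaction. Calls needed a Benjamini-Hochberg adjusted p-value under 0.05 over all genes tested and an absolute log2 fold change over 1. The scripts were tested on simulated data. Gene positions are from GENCODE vM1 (mm9), whose longest coding transcript gave the length for RPKM. Likeness was Pearson's r of log2 CPM with a pseudocount of 0.5. Alternatives were DESeq2, RLE or no scaling factors, no filter or a minimum count of 50, other lines of a symbol, other sets of libraries in the fit, no minimum fold, each library left out, and blocks.

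The genes named are the 10 genes, the 2 called genes of each list with the largest absolute log2 fold change in WT from D0 to D6 and in Tet2-/- against WT at D6, and the 3 genes most like a member, except 1 list gene that is not reported here. The 10 genes and the lists were chosen with earlier results of these data known. Clone names in the labels (1 DKO name at D6 lacks its point and was read as the matching D0 name) pair the libraries of both days, since they are the same cell line, and deviations of the same clone from its group mean had correlations of 0.0771 to 0.188. The replicate numbers in the labels name different clones at D0 and D6 in part of WT, Tet1-/- and DKO.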

Additional observations from a re-analysis of the deposited data

Results flagged for a closer look

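For 5 pairs of gene and knockout, the change from D0 to D6 differed from the change in WT in a test of the difference itself (edgeR, interaction contrast). In Tet2-/- these were Kdr (log2 difference -6.07, SE 1.38, adjusted p = 0.00931), Gata1 (-2.41, SE 0.66, adjusted p = 0.0217) and Hhex (-1.29, SE 0.39, adjusted p = 0.0325). In TKO they were Kdr (-4.84, SE 1.26, adjusted p = 0.0312) and Hhex (-1.71, SE 0.39, adjusted p = 0.0179). DESeq2 called the same numbers of genes, 3 and 2.

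Each of these calls was lost without 1 or more single libraries, while its sign stayed. Kdr in Tet2-/- was at -5.72 (edgeR adjusted p = 0.0519) without replicate 2 at D0 and at -5.80 (adjusted p = 0.0531) without replicate 1 at D6. Gata1 lost its call without any of the 4 Tet2-/- libraries (-2.43 to -2.38) or WT clone O4.1 at D6 (-1.83, edgeR adjusted p = 0.056). Hhex in Tet2-/- lost it without any of the 4 Tet2-/- libraries (-1.42 to -1.13), WT clones O4.2 (-1.16) or O4.13 (-1.34) at D0, or O4.1 at D6 (-0.89). Kdr in TKO lost it without WT clones O4.1 (-4.59) or O4.13 (-4.76) at D0, O4.1 (-4.76) or O4.13 (-4.31) at D6, TKO replicate 2 at D0 (-4.35), or TKO replicate 1 (-4.36) or 2 (-5.41) at D6. Hhex in TKO lost it without TKO replicate 1 at D6 (-1.70, edgeR adjusted p = 0.0519). Without WT clone O4.2 at D6, Pecam1 was called as higher than in WT in both, at 1.73 in Tet2-/- (edgeR adjusted p = 0.00446) and 2.19 in TKO (adjusted p = 0.00197), and without TKO replicate 2 at D0, Gata2 was called in TKO at 3.46 (adjusted p = 0.0132).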

How the results depend on the processing

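Over all alternatives, no log2 fold change of a called gene reversed. DESeq2 called 1 of the 10 genes in Tet1-/- and 1 in DKO against WT at D0, 3 in TKO against WT at D6, 3 in Tet2-/- and 1 in TKO against Tet1-/-, 2 in DKO against Tet2-/-, and 1 in the interaction of DKO. With all 24 libraries in 1 fit there were 0 calls in Tet2-/- against WT at D0, 3 in TKO against WT at D6, 3 in Tet2-/- and 1 in TKO against Tet1-/-, and 3 in DKO against Tet2-/-. Fits of the compared groups alone gave 1 in Tet1-/- and 1 in DKO against WT at D0, 2 in Tet2-/- against Tet1-/-, 5 in DKO and 0 in TKO against Tet2-/-. No filter gave 1 in DKO against WT at D0 and 2 in Tet2-/- against Tet1-/-, library totals without scaling factors gave 2 in the latter and 7 in place of 5 in WT from D0 to D6 (Cdh5 and Hhex added), and a minimum count of 50 gave 0 in Tet2-/- against WT at D0 and 4 at D6. For these edgeR alternatives the shares of all genes called are not given here. The cause of the changed counts was not tested.

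With clone as a replicate block, 5 genes were called in TKO from D0 to D6. The other changed calls stand beside their results (Kdr in Tet1-/-, Gata2 in Tet2-/-, Lmo2 in TKO, and Cdh5 in WT, TKO and the interaction of Tet2-/-), and the block changed no other call. Libraries of 1 day share only a replicate number. With that number as a block, 1 gene was called in DKO against WT at D0 (Kdr, 1.85, edgeR adjusted p = 0.023) and Gata2 was not called in Tet2-/- at D6 (-1.02, adjusted p = 0.0645). Mean correlations of deviations by number were -0.356 to 0.133.

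Leaving out 1 library at a time, calls from D0 to D6 ranged from 4 to 7 in WT, 4 to 5 in Tet1-/-, 2 to 3 in Tet2-/-, 2 to 4 in DKO and 3 to 5 in TKO. Against WT they ranged from 0 to 1 in Tet2-/- and 0 to 1 in TKO at D0, and from 0 to 8 in Tet2-/- and 0 to 4 in TKO at D6. They ranged from 0 to 2 in Tet2-/- against Tet1-/-, 0 to 2 in TKO against Tet2-/-, 0 to 4 in the interaction of Tet2-/- and 0 to 3 in that of TKO. Where 1 clone of a group was left out of 2, the other was assumed to vary like the rest. Of the 9 genes other than Pecam1, several rested on few counts (1 to 16 for Cdh5 and 3 to 35 for Runx1 and Gata2 in the D0 libraries), so small differences were not detectable at this depth.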

Other observations

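Markers of other cell types moved over the same 6 days, and they stand here as context for the 10 genes. In WT, 6 of 9 tested endoderm markers rose and none fell, and in Tet2-/- at D6, 5 of 9 were lower than in WT, led by Gata6 (log2 fold change -6.07, SE 0.92, edgeR adjusted p = 0.00434) and Cer1 (-5.85, SE 1.00, adjusted p = 0.00551). Cer1 was at 0 in all WT D0 clones and at 38.0 ± 24.9 CPM (SD, n = 3) at D6, and Foxa2 rose by 7.09 (SE 0.75, edgeR adjusted p = 1.96e-07). Of 8 trophectoderm markers, 6 rose in WT, led by Gata3 (6.74, SE 0.63, edgeR adjusted p = 4.85e-08) and Cdx2 (6.57, SE 0.94, adjusted p = 6.88e-06). In Tet2-/-, 6 of 8 were lower than in WT, with Cdx2 at -4.74 (SE 1.19, edgeR adjusted p = 0.0167) and Elf5 at 0 in both clones and at 0.220 ± 0.135 CPM (SD, n = 3) in WT.

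Of 11 cardiac and smooth muscle markers, 8 rose in WT and 7 were lower in Tet2-/- than in WT at D6. Acta2 was at 0.192 ± 0.166 CPM at D0 and 47.3 ± 10.3 CPM at D6 in WT (SD, n = 3). Hand2 was at 6.28 ± 4.44 CPM in WT at D6 and at 0 in both Tet2-/- clones, and Tbx5 was lower in Tet2-/- by a log2 fold change of -4.64 (SE 1.23, edgeR adjusted p = 0.02). Of 7 tested neuroectoderm markers, 4 were higher in Tet2-/- than in WT and 1 was lower, led by Tubb3 (3.1, SE 0.60, edgeR adjusted p = 0.00716) and Pax6 (2.84, SE 0.65, adjusted p = 0.012), while in WT over 6 days 2 rose and 2 fell, with Tubb3 at -3.68 (SE 0.45, adjusted p = 1.24e-06) and Otx1 at 3.99 (SE 0.53, adjusted p = 2.89e-06). Tubb3 averaged 174 CPM in WT at D0, 13.5 CPM in WT at D6 and 118 CPM in Tet2-/- at D6, so its D6 level in Tet2-/- was below that of undifferentiated WT cells. Of 10 markers of undifferentiated ESCs, 9 fell in WT, led by Zfp42 (-3.49, SE 0.37, edgeR adjusted p = 2.42e-07) and Tfcp2l1 (-3.11, SE 0.34, adjusted p = 2.7e-07). In Tet2-/- at D6, 2 were higher than in WT and 1 lower, Klf2 at 1.73 (SE 0.49, edgeR adjusted p = 0.0255) and Dppa3 at -2.83 (SE 0.91, adjusted p = 0.0404) having the largest differences.

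Among the genes with patterns most like the other members over the 12 D6 libraries were Ccdc32 (r = 0.856), Dgkz (0.853) and Arhgef1 (0.843) for Etv2, Cdc34 (0.950), Ccdc12 (0.949) and Cc2d1b (0.937) for Tal1, and Ruvbl1 (0.883), Wnt5b (0.882) and Sostdc1 (0.875) for Lmo2. For Gata1 they were Dnase1l1 (0.937), Bmpr2 (0.934) and Esyt1 (0.930), for Gata2 Plxna1 (0.949), Fuk (0.947) and Capg (0.946), and for Cdh5 Vim (0.937), Igf2bp3 (0.926) and Nagk (0.918).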
